A study of Mus musculus with 2 samples.

Results

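MHC class I presentation was followed through 10 genes in microglia, the macrophages that reside in brain tissue: B2m, H2-D1, H2-K1, H2-T23, Tap1, Tap2, Tapbp, Psmb8, Psmb9 and Psmb10. The genes were chosen by name for their part in the pathway, not by a threshold on their values, and all 10 were present among the 19537 genes of the tables. The mice were PARK7/DJ-1 knock-out (KO, a Park7 gene-trap line backcrossed to C57BL/6NCrl) or wild type (WT) littermates, aged 3 to 4 months, and both genotypes were labelled as treated with LPS, a bacterial cell wall component that was injected into the peritoneum at 4 µg per g of body weight. At 24 h, CD11b+CD45int cells were sorted from the brain and their 3' transcript ends were captured by Drop-seq, where unique molecular identifiers (UMIs) count transcript molecules. There was 1 library per genotype, called KO and WT from here on, each from 2 mice (1 female and 1 male). The comparison asked how the class I machinery of microglia differs without DJ-1 under systemic inflammation. Because there are no replicates, no test between genotypes was made, the 95% intervals given cover only the error of counting. Genotype and library cannot be told apart.

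Barcodes with at least 500 UMIs and 100 genes were taken as cells, which left 320 cells in KO and 1427 cells in WT. They held 381305 and 1989011 UMIs, with medians of 963.5 and 1065 UMIs per cell, and no cell barcode was shared. Park7 had 1 UMI in KO and 323 UMIs in WT, so the gene and the genotype labels point the same way. Markers of the sorted cell type, 12 genes with P2ry12, Cx3cr1 and Csf1r among them, summed to 35436 CPM (UMIs per 1e6 UMIs of the library's cells) in KO and 24587 CPM in WT, none of them at 0. These 3 were among the 10 markers that were higher in KO. C1qa (ratio of KO over WT 0.536, 0.503 to 0.571) and C1qb (0.722, 0.683 to 0.762) were lower. The libraries did not carry the same amount of inflammatory transcripts: the 20 genes of an inflammatory list summed to 999 CPM in KO and 11223 CPM in WT. Saa3, an acute phase gene singled out here after its values were seen, had 0 UMIs in KO and 8367 in WT, although LPS is on both labels. Loss of DJ-1 and a weaker response of KO mice to the injection cannot be told apart. Choroid plexus markers summed to 2119 CPM in KO and 14.6 CPM in WT, and neutrophil markers to 0 and 64.4 CPM. Monocyte markers (26.2 and 15.6 CPM) and border macrophage markers (62.9 and 41.7 CPM) were low in both. Without the cells that held 3 or more UMIs of such markers, the summed ratio of the class I genes given below was 0.493 in place of 0.497.

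Class I molecules show peptides from the inside of a cell to CD8 T cells. Proteins are cut by the proteasome, in which interferon replaces the constitutive catalytic subunits by the inducible immunoproteasome subunits Psmb8, Psmb9 and Psmb10. The TAP transporter carries peptides into the endoplasmic reticulum, tapasin and its partners load them on a heavy chain, and beta-2-microglobulin is the invariant light chain without which the complex does not reach the surface. In the healthy brain microglia carry little class I, and interferons raise it.

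Of the 10 genes, 9 had a lower level in KO, 4 were at least 2-fold lower and 0 were at least 2-fold higher. The 4 were the light chain B2m and the heavy chains H2-D1, H2-K1 and H2-T23, whereas transport, loading and proteasome genes differed less. Summed over all 10, the level was 3218 CPM in KO (3040.3 to 3403) and 6474 CPM in WT (6362 to 6586), a ratio of 0.497 (0.468 to 0.527). Over the 9085 genes with at least 20 UMIs in both libraries together, 4608 had a lower level in KO. Of these 9085 genes, 15.3% were at least 2-fold lower in KO and 13.5% at least 2-fold higher. Among the 4469 genes with at least 100 UMIs, 2432 had a lower level in KO. The counting interval of the ratio lay below 1 for 6 of the 10 genes, against 18.7% of all genes, and above 1 for 0 of them, against 19.6%. Deeper genes have narrower intervals, and all 10 members had over 100 UMIs: of the 4469 genes with at least 100 UMIs, the interval lay below 1 for 28.8% and above 1 for 23.7%. The median log2 ratio was -0.76 over the members and 0.03 over all genes. Among cells with at least 1000 UMIs 2 genes were at least 2-fold lower, since B2m at a log2 ratio of -0.98 and H2-T23 at -0.89 then fell short of that line, and the summed ratio was 0.506. B2m also fell just short among cells with at least 300 UMIs (-0.998, leaving 3 genes), with every cell thinned to 500 UMIs (-0.945) and without cell barcodes that hold an N (-0.990). After thinning and without such barcodes the count stayed at 4 because Tap1 passed the line, at -1.05 and -1.13. Among cells with Y-linked UMIs 1 gene was at least 2-fold lower, with a summed ratio of 0.795. Among cells with 0 UMIs of the inflammatory list the summed ratio was 0.879, and 0 of only 4 genes that then reached 20 UMIs were at least 2-fold lower.

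**Figure D1:**
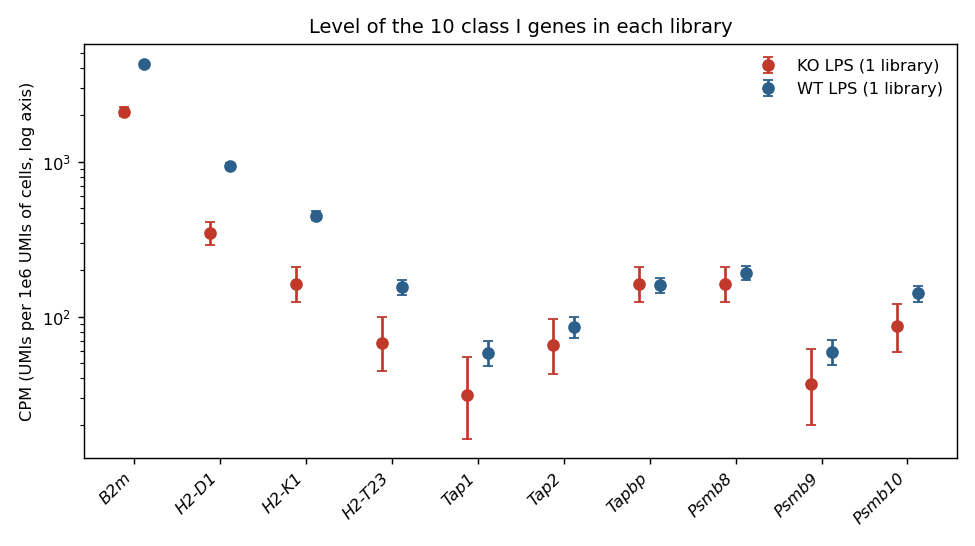
Level of each class I gene in CPM (log axis) in KO (red, labelled KO LPS) and WT (blue, labelled WT LPS), 1 library each, with 95% Poisson intervals. B2m and the 3 heavy chains lie apart between the libraries, while the intervals of Tapbp and Psmb8 overlap.

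B2m (chr2:122147687-122153082, GRCm38.p6), the light chain shared by all class I molecules, had 799 UMIs in KO and 8432 UMIs in WT. These gave 2095 CPM (1953 to 2246) and 4239 CPM (4149 to 4331), and a ratio of 0.494 (0.459 to 0.532). B2m held most of the member UMIs, 65.1% in KO and 65.5% in WT, so the sum over the 10 genes is mainly that of B2m. Without it, the other 9 genes gave a ratio of 0.502.

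The classical heavy chains H2-D1 (chr17:35263094-35267497) and H2-K1 (chr17:33996012-34000619), which present peptides to CD8 T cells, had the lowest ratios of the 10 genes. H2-D1 stood at 346 CPM (132 UMIs) in KO and 935 CPM (1860 UMIs) in WT, a ratio of 0.370 (0.308 to 0.442). H2-K1 stood at 163 CPM (62 UMIs) and 448 CPM (891 UMIs), a ratio of 0.363 (0.276 to 0.470). The share of H2-D1 among the UMIs of both was 68.0% (61.0 to 74.5) in KO and 67.6% (65.8 to 69.4) in WT, so the pair differed between libraries by like factors. The non-classical heavy chain H2-T23 (chr17:36029977-36032701), known as Qa-1 and a ligand of the NKG2A receptor, stood at 68.2 CPM (26 UMIs) and 155 CPM (308 UMIs), a ratio of 0.440 (0.283 to 0.658). Heavy chain genes are near-identical in parts, and how reads that fit several of them were assigned was not stated, so the counts of single heavy chains are uncertain.

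Summed, the 3 heavy chains had a ratio of 0.375 (0.326 to 0.430), below that of their light chain. Expressed within each library, where no scaling enters, heavy chains made up 21.6% (19.1 to 24.2) of heavy chain and B2m UMIs in KO and 26.6% (25.8 to 27.4) in WT. The odds ratio was 0.759 (0.647 to 0.888), with 220 heavy chain UMIs behind the KO value.

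Upstream sequences of the 4 genes that were at least 2-fold lower are shown because they share a short motif. The search covered the 250 bases before a start of each gene that is given in the RefSeq table of GRCm38.p6, on both strands, for AANNGAAA (the core bound by interferon regulatory factors), GGGNNTTCC (a form of the NF-kB element) and TTCNNNGAA (the spaced element bound by STAT factors). Capitals mark AANNGAAA or its reverse complement TTTCNNTT, and in H2-D1 and H2-K1 also GGGNNTTCC, and each stretch reads 5' to 3' on the gene's own strand.
B2m (chr2:122147530-122147577, plus strand): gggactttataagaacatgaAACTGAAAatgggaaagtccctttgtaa
H2-D1 (chr17:35262903-35262971, plus strand): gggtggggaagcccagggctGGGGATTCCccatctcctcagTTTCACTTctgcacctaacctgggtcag
H2-K1 (chr17:34000410-34000478, minus strand): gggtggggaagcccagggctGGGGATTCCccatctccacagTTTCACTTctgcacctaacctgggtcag
H2-T23 (chr17:36032755-36032845, minus strand): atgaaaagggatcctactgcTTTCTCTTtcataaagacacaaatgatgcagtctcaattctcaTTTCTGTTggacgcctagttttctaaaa

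The stretches of H2-D1 and H2-K1 differ by 1 substitution over 69 bases, T38A, with H2-D1 first and positions counted from the 5' end of the stretch. A window was in the table for 9 of the 10 genes, Tap2 being the one without. For H2-K1 the table held 2 windows, neither from the outermost start of the gene: the one shown belongs to a start 272 bases inside the coordinates given above, and the other, from a start 286 bases inside, held the same motifs. AANNGAAA was found in 4 of the 9 windows, those of B2m, H2-D1, H2-K1 and H2-T23, against 21.3% of all 32851 windows. It was not found before Tap1, Tapbp, Psmb8, Psmb9 and Psmb10, none of which was at least 2-fold lower in KO. Tap1 and Psmb9 are transcribed away from each other with starts 226 bases apart, so their windows are largely the same sequence. H2-D1 and H2-K1 are near copies over the stretch shown, so the 9 windows are not 9 separate sequences. The constitutive subunits did not follow this split: Psmb5 lacked the motif and had a ratio of 0.421, and Psmb6 held it and had a ratio of 0.558. GGGNNTTCC was found only before H2-D1 and H2-K1, against 4.98% of all windows, and TTCNNNGAA only before Psmb8, against 7.02%. GGGNNTTCC is only 1 form of the NF-kB element, and other forms were not searched. The B2m stretch holds gggaaagtccc, which this pattern cannot match, so a window without GGGNNTTCC may still hold such an element. The motif search was set up after the ratios were known, a match of letters is not a binding site, and elements outside the 250 bases were not searched.

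Peptide transport and loading differed less than the heavy chains. Tap1 (chr17:34187556-34197225) and Tap2 (chr17:34204479-34216321) encode both chains of the peptide transporter. Tap1 had 12 UMIs in KO and 116 in WT, that is 31.5 and 58.3 CPM, with a ratio of 0.540 (0.271 to 0.979). Tap2 had 25 and 170 UMIs, 65.6 and 85.5 CPM, with a ratio of 0.767 (0.483 to 1.17). Tapbp (chr17:33919478-33929290), which encodes tapasin, the bridge between transporter and heavy chain, stood at 163 CPM (62 UMIs) in KO and 160 CPM (318 UMIs) in WT, a ratio of 1.02 (0.762 to 1.34). Tapbp was the only one of the 10 genes with a ratio above 1. Summed, the 3 genes had a ratio of 0.855 (0.684 to 1.06), and the interval of the sum does not overlap that of the heavy chains.

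As a sum, the immunoproteasome subunits had a ratio between that of the heavy chains and that of transport and loading. Its interval overlaps that of transport and loading but not that of the heavy chains. Psmb8 (chr17:34198195-34201454), the inducible chymotrypsin-like subunit, stood at 163 CPM (62 UMIs) in KO and 192 CPM (382 UMIs) in WT, a ratio of 0.847 (0.637 to 1.11). Psmb9 (chr17:34182030-34187330) stood at 36.7 CPM (14 UMIs) and 59.3 CPM (118 UMIs), with a ratio of 0.619 (0.328 to 1.08). Psmb10 (chr8:105935728-105938392), the only one of them outside the MHC region, stood at 86.5 CPM (33 UMIs) and 141 CPM (281 UMIs), with a ratio of 0.613 (0.414 to 0.881). The summed ratio was 0.728 (0.590 to 0.891). Psmb9 and Tap1 are transcribed away from each other, with starts 226 bases apart, and both had few UMIs in KO.

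**Figure D2:**
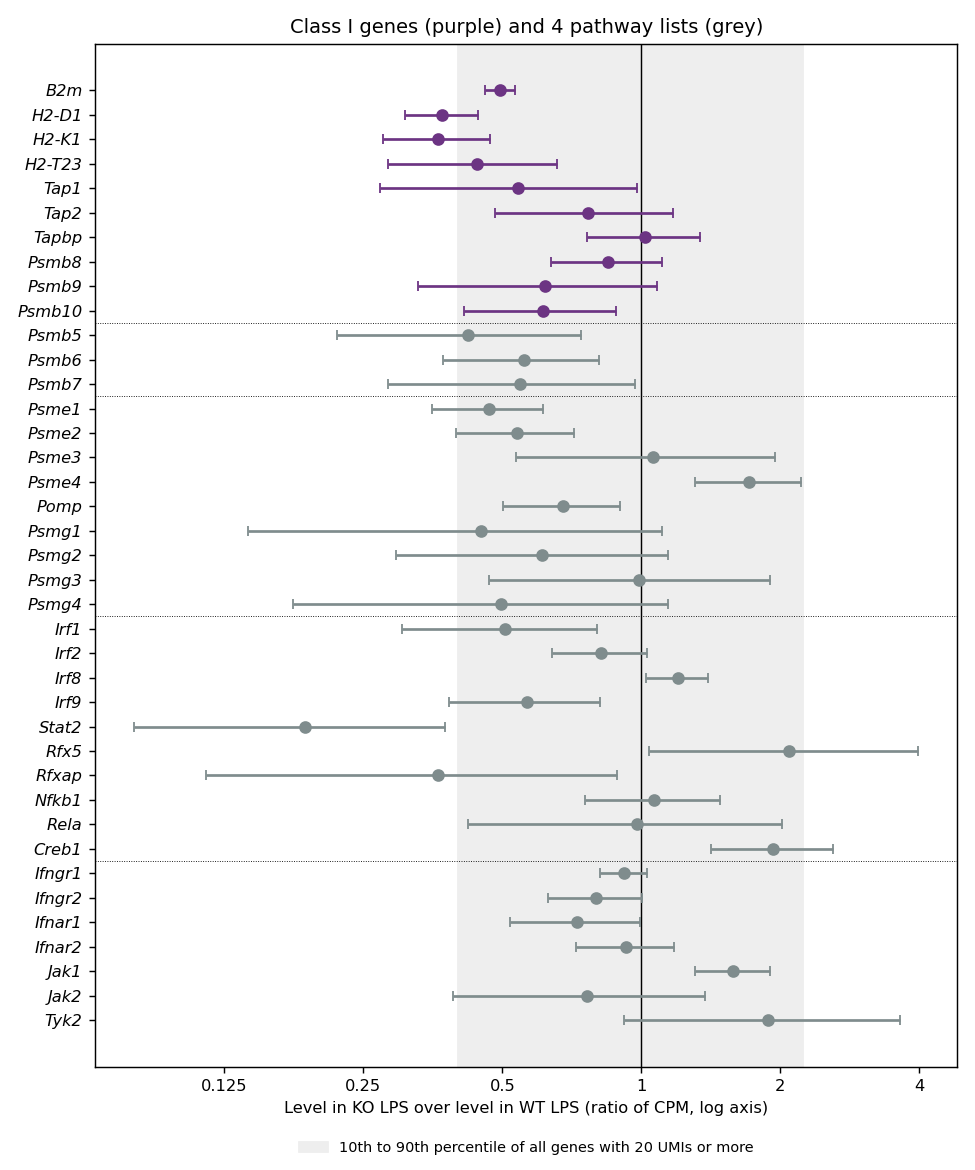
Ratio of the level in KO over that in WT (log axis) with 95% counting intervals for the 10 class I genes (purple) and, below dotted lines, for genes of the lists of constitutive catalytic subunits, PA28 and assembly factors, class I regulators and interferon receptors and kinases (grey). The grey band spans the 10th to 90th percentile of all genes with at least 20 UMIs. Nlrc5 is not drawn, since it had 0 UMIs in KO. H2-D1 and H2-K1 sit just below the lower edge of the band at 0.370 and 0.363.

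Each inducible subunit takes the place of a constitutive one in the assembled proteasome: Psmb8 that of Psmb5, Psmb9 that of Psmb6 and Psmb10 that of Psmb7. All 3 constitutive subunits were also lower in KO, and Psmb5 was at least 2-fold lower. Psmb5 had 13 UMIs in KO and 161 in WT (ratio 0.421, 0.219 to 0.741), Psmb6 31 and 290 (0.558, 0.372 to 0.809) and Psmb7 13 and 124 (0.547, 0.283 to 0.970). The inducible share of catalytic subunit UMIs was therefore not lower in KO.

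Psmb8 made up 82.7% (72.2 to 90.4) of Psmb8 and Psmb5 UMIs in KO and 70.3% (66.3 to 74.2) in WT, with an odds ratio of 2.01 (1.06 to 4.10). For Psmb9 with Psmb6 the shares were 31.1% (18.2 to 46.6) and 28.9% (24.6 to 33.6). For Psmb10 with Psmb7 they were 71.7% (56.5 to 84.0) and 69.4% (64.6 to 73.8). Over all 6 subunits, the inducible share was 65.7% (57.9 to 72.8) in KO and 57.6% (54.9 to 60.2) in WT, with an odds ratio of 1.41 (0.993 to 2.01) that includes 1. These shares rest on 166 UMIs in KO, compare the libraries for the same gene pair, and do not give the makeup of a proteasome.

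**Figure D3:**
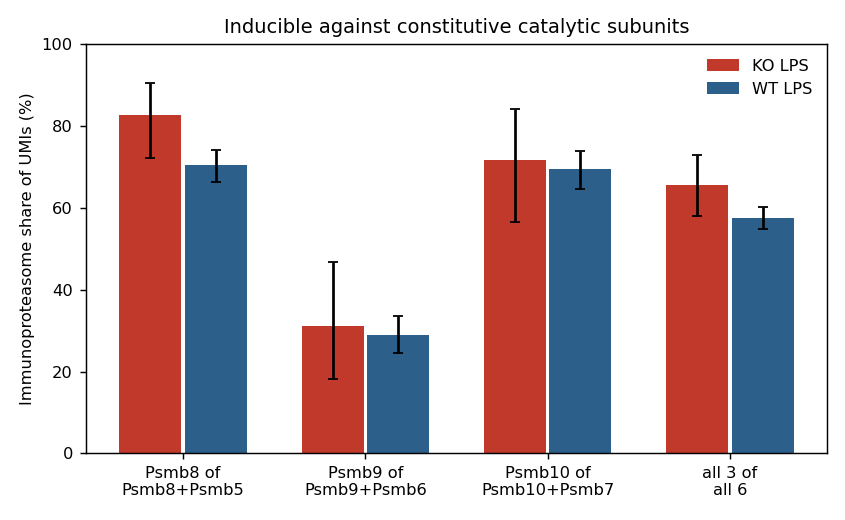
Share of the inducible subunit among the UMIs of each inducible and constitutive pair, and over all 6 subunits, in percent, for KO (red) and WT (blue), with 95% Clopper-Pearson intervals. The bars of KO are not below those of WT in any pair, and the intervals overlap in every pair of bars.

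The genes around the members were split. Among the 9 proteasome activator and assembly genes, 2 (Psme1 and Psmg1) were at least 2-fold lower and 0 at least 2-fold higher, against 15.3% and 13.5% of all genes. Their median log2 ratio was -0.66. Psme1 and Psme2, the interferon-induced PA28 subunits that open the proteasome, had 59 and 657 UMIs (ratio 0.468, 0.353 to 0.612) and 53 and 515 UMIs (0.537, 0.397 to 0.713) in KO and WT. Psmg1, an assembly chaperone, had 5 and 58 UMIs, with an interval of 0.141 to 1.11 that includes 1. Psme4, which encodes the alternative activator PA200, was higher in KO, with 79 and 241 UMIs (1.71, 1.31 to 2.21). The UMIs of Psme1 and Psme2 were 58.6% (51.3 to 65.7) of those of all 3 genes in KO and 82.9% (80.9 to 84.9) in WT.

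Of the 10 measured peptide loading and trimming genes, 3 were at least 2-fold lower in KO and 0 at least 2-fold higher, against 15.3% and 13.5% of all genes. Their median log2 ratio was -0.31. The 3 were Calr, a chaperone of the loading complex, with 583 and 6339 UMIs (ratio 0.480, 0.440 to 0.522), Pdia3, its disulphide isomerase, with 328 and 4538 (0.377, 0.336 to 0.422), and Sec61a1, a subunit of the translocon, with 22 and 290 (0.396, 0.244 to 0.611). Calr and Pdia3 also serve general protein folding in the endoplasmic reticulum. The trimming peptidase Erap1 had 29 and 208 UMIs (0.727, 0.475 to 1.08), and Tapbpl, a tapasin relative, 35 and 171 UMIs (1.07, 0.720 to 1.54). The cytosolic peptidases Npepps (41 and 131 UMIs, 1.63, 1.12 to 2.33) and Blmh (30 and 95 UMIs, 1.65, 1.05 to 2.51) were higher in KO.

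Of 22 further class I and class I-like heavy chains, 16 were in the table and 9 had at least 20 UMIs, with a median log2 ratio of 0.37. H2-Q4 was at least 2-fold lower (2 and 69 UMIs, ratio 0.151, 0.0180 to 0.567) and H2-T3 at least 2-fold higher (37 and 34 UMIs, 5.68, 3.47 to 9.32). H2-Q4 reached the 20 UMIs almost wholly through WT, where it is high, and it enters this median. H2-T24 (36 and 103 UMIs) had a ratio of 1.82 (1.21 to 2.69), whereas the H2-M3 ratio was 0.835 (0.459 to 1.42). The lower level of H2-D1, H2-K1 and H2-T23 was therefore not common to the measured members of that family, within the limits that sequence likeness sets.

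Of the 13 class I regulators 12 had at least 20 UMIs, Nlrc5 through WT alone, so no count or median is given for them. Nlrc5, the transactivator of class I genes, had 0 UMIs in KO and 32 in WT. A floor of 3 counts in the KO library would put it 2.04-fold lower. The counting interval of its ratio reaches up to 0.637, a difference of only 1.57-fold. Stat2, which carries interferon signals to the nucleus, had 8 and 223 UMIs, a ratio of 0.187 (0.0798 to 0.375). Rfxap, a subunit of the complex that recruits Nlrc5, had 5 and 72 UMIs, and its partner Rfx5 had 14 and 35, with a ratio of 2.09 (1.04 to 3.98). Irf1 had a ratio of 0.506 (0.303 to 0.803), whereas Irf8, a factor of myeloid identity, had one of 1.20 (1.02 to 1.40).

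None of the 7 interferon receptors and kinases was 2-fold different, where 15.3% of all genes were at least 2-fold lower and 13.5% at least 2-fold higher. Their median log2 ratio was -0.13. Ifngr1 stood at 899.5 CPM in KO and 982 CPM in WT (ratio 0.916, 0.814 to 1.03), Ifnar1 at a ratio of 0.724 (0.518 to 0.992) and Jak1 at 1.58 (1.30 to 1.90). Of the genes that answer interferon, the 21 antiviral effectors summed to 233 CPM (89 UMIs) in KO and 1594 CPM (3170 UMIs) in WT. Of the 18 with at least 20 UMIs, 7 had 0 UMIs in KO and reached that minimum through WT alone, so no count or median is given for them. The interferon-induced GTPases summed to 467 and 1061 CPM.

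MHC class II molecules present peptides from outside the cell. Their chains H2-Aa, H2-Ab1 and H2-Eb1 were near the limit of detection in both libraries, whereas the accessory genes were measured. H2-Aa, H2-Ab1 and H2-Eb1 had 0, 1 and 0 UMIs in KO and 4, 15 and 3 UMIs in WT. Cd74, the invariant chain, had 4 and 306 UMIs, a ratio of 0.0682 (0.0185 to 0.176). H2-DMa, a chain of the class II peptide exchange factor, stood at 99.7 and 71.4 CPM (ratio 1.40, 0.949 to 2.01). Ciita, the class II transactivator, had 0 UMIs in both.

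The share of cells with a UMI was compared after every cell was thinned to 500 UMIs. A UMI of at least 1 of the 10 genes was present in 72.2% (66.9 to 77.0) of KO cells and 89.6% (87.9 to 91.1) of WT cells. Averaged over all possible draws in place of 1 draw, the shares were 70.0% and 88.7%. Free RNA sets a background for such shares, and since nearly all nucleated cells carry class I, no cell type without it was at hand and barcodes with at most 100 UMIs were used. In KO these droplets were close to cells in microglia markers, at 32472 CPM in droplets and 35436 CPM in cells. In WT they were less close, at 14793 and 24587 CPM. A background at the level of the cells is therefore not particular to class I in KO. Drops of 500 UMIs from that background would show a member in 70.5% of cases in KO and 75.9% in WT. The KO interval thus includes the background, and the WT interval lies above its own.

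B2m was present in 59.7% (54.1 to 65.1) of KO cells, with a background of 54.0%, and in 78.1% (75.9 to 80.3) of WT cells, with a background of 59.4%. Before thinning the shares were 75.6% and 87.5%. H2-D1 was present in 14.4% (10.7 to 18.7; background 10.7%) and 32.4% (30.0 to 34.9; background 14.6%). H2-K1 was present in 8.44% (5.63 to 12.04) and 19.8% (17.8 to 21.997), beside backgrounds of 8.43% and 10.9%. For both classical heavy chains, the share of WT cells was well above background. In KO the share of H2-K1 was at background and that of H2-D1 narrowly above it. For Psmb8 the shares were 6.56% (4.11 to 9.86; background 1.99%) and 8.69% (7.28 to 10.3; background 3.88%), above background in both libraries.

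Thinning is 1 random draw: over all draws the expected shares in KO and WT were 56.1% and 77.0% for B2m, 13.8% and 33.2% for H2-D1, and 7.51% and 19.5% for H2-K1. With another draw the KO shares of B2m, H2-D1 and H2-K1 were 55.0%, 11.6% and 4.69%. The other members ranged from 1.25% (Tap1) to 7.81% (Tapbp) of KO cells and from 2.80% (Tap1) to 7.43% (Tapbp) of WT cells. Of the 9 genes other than B2m, a KO cell showed 0.506 on average and at most 3, and a WT cell 0.929 and at most 4. Cells with none of the 9 made up 60.6% in KO and 37.4% in WT.

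**Figure D4:**
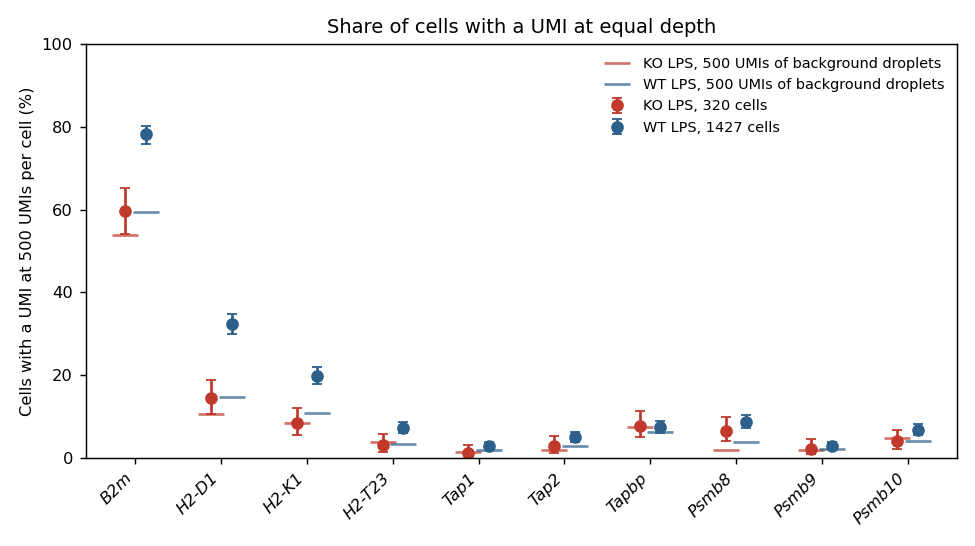
Percent of cells with at least 1 UMI of each class I gene at 500 UMIs per cell in KO (red) and WT (blue), with 95% Clopper-Pearson intervals. The short bars give the percent expected from 500 UMIs of background droplets of the same library. For B2m, H2-D1 and H2-K1 the WT points lie far above their bars and the KO points on or just above theirs.

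In the background droplets the 10 genes summed to 2441 CPM in KO and 2844 CPM in WT, a ratio of 0.858 (0.767 to 0.959), so the libraries differed less in free RNA than in cells. The level in cells was 1.32 times (1.19 to 1.47) that of free RNA in KO and 2.28 times (2.13 to 2.44) in WT. For B2m these factors were 1.35 (1.18 to 1.55) and 2.36 (2.16 to 2.57), for H2-D1 1.53 (1.08 to 2.19) and 2.95 (2.41 to 3.65), and for H2-K1 0.923 (0.600 to 1.44) and 1.94 (1.53 to 2.49). Psmb8 had the highest factor in KO, 4.04 (1.93 to 9.77), and 2.43 (1.62 to 3.80) in WT.

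Across cells at equal depth, the members varied together only weakly. Pearson's r of B2m with the summed other 9 genes was 0.207 over 320 cells of KO and 0.168 over 1427 cells of WT. Among the 45 gene pairs the median r was -0.015 in KO and 0.010 in WT, with the highest value for B2m and H2-D1 in both libraries (0.284 and 0.151). H2-D1 and Psmb8 had r = 0.259 in KO, resting on 9 cells with both, and -0.010 in WT, with 42 such cells. These correlations describe sparse counts in cells that share a library and carry no p-value.

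The genes most alike in pattern to the summed members, among the 228 genes with at least 200 UMIs in the KO library, included Ctss (r = 0.307), Cst3 (0.260), C1qb (0.215) and Fcgr3 (0.194). In WT the 5 closest were Cst3 (0.378), Ctss (0.295), C1qa (0.272), Actb (0.255) and Fth1 (0.240) among 2039 genes. Malat1, a nuclear RNA named after its value was seen, had the lowest r in both, -0.257 and -0.409. The r of the summed members with the microglia marker list was 0.164 in KO and 0.305 in WT, with the antiviral effectors 0.265 and 0.156, and with the inflammatory list 0.111 and 0.158. The KO value for the antiviral effectors rests on few cells. In KO the members stood at 3266 CPM in 297 cells with 0 antiviral UMIs, 3059 CPM in 17 cells with 1 and 5000 CPM in 6 cells with 2 or more. At a fixed total per cell, the counts of different genes are not independent of each other.

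The members were then compared among cells with like UMIs of another list, at 500 UMIs per cell. Among cells with 0 antiviral UMIs (297 in KO and 766 in WT), the 10 genes stood at 3266 and 5627 CPM, a ratio of 0.580 (0.525 to 0.641). Among cells with 0 inflammatory UMIs (214 and 119), they stood at 3178 and 3613 CPM, a ratio of 0.879 (0.739 to 1.05). There B2m had a ratio of 0.919 (0.740 to 1.14), the heavy chains 0.609 (0.412 to 0.900) and the immunoproteasome subunits 1.20 (0.600 to 2.52). Thus B2m did not differ beyond counting error between the cells without inflammatory UMIs, and the heavy chains were lower in KO as a sum. Among them H2-D1 had a ratio of 0.592 (0.351 to 0.999), H2-T23 one of 0.278 (0.0746 to 0.893; 5 and 10 UMIs) and H2-K1 one of 0.927 (0.431 to 2.08; 20 and 12 UMIs).

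With 1 to 4 inflammatory UMIs (105 and 785 cells), the ratio of the 10 genes was 0.588 (0.503 to 0.684). In WT the level of the 10 genes was 3613 CPM (3147 to 4130) at 0 inflammatory UMIs, 5862 CPM (5625 to 6107) at 1 to 4 and 7499 CPM (7171 to 7838) at 5 or more. In KO it was 3178 CPM (2849 to 3534) at 0 and 3448 CPM (2964 to 3988) at 1 to 4, and 1 cell had 5 or more. Cells without inflammatory UMIs in WT had 876 UMIs in the median before thinning, against 967 in KO, and the list stood at 6005 CPM in the free RNA of WT. These cells also held fewer microglia marker UMIs in WT, a median of 10 against 17 in KO. The level of the 10 genes differed with the number of such UMIs, as given below. Whether 0 UMIs mark the same state in both libraries was not tested.

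The ratio was also taken among cells with like numbers of microglia marker UMIs. Among cells with 10 to 19 microglia marker UMIs (163 and 862) the ratio of the 10 genes was 0.471 (0.415 to 0.533), and with 20 or more (124 and 99) it was 0.481 (0.406 to 0.568). In cells with under 10 (33 and 466) it was 0.324 (0.204 to 0.489). These 33 cells of KO held 5.88 UMIs of other cell types' markers per cell on average, against 0.461 in WT. The level of the 10 genes differed between these bins in both libraries, at 1394, 3387 and 3661 CPM in KO and 4305, 7186 and 7616 CPM in WT from under 10 to 20 or more marker UMIs.

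**Figure D5:**
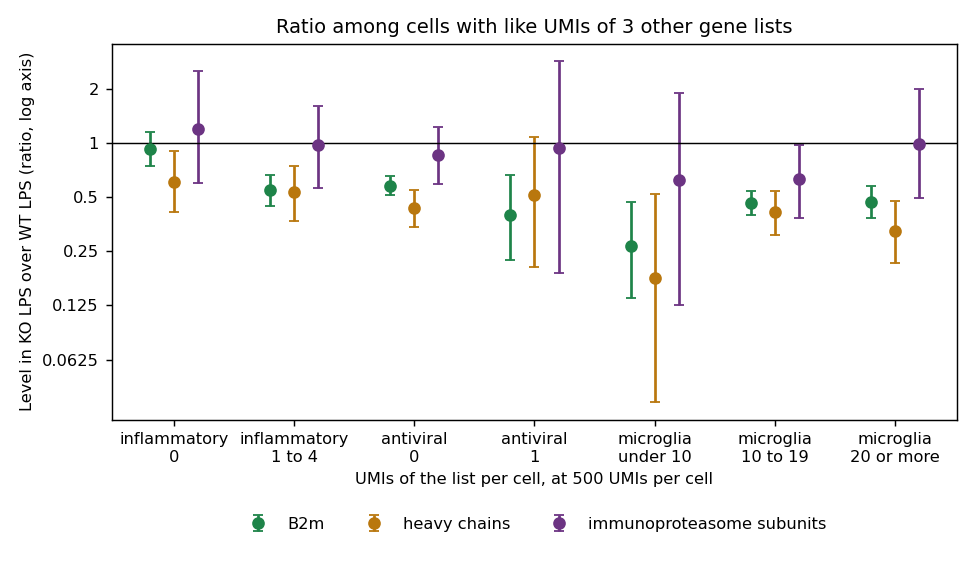
Ratio of the level in KO over WT (log axis) for B2m (green), heavy chains (ochre) and immunoproteasome subunits (purple), with 95% counting intervals, among cells with the given number of UMIs of the inflammatory, antiviral or microglia marker list. Strata with under 17 cells in KO are not drawn. In cells with 0 inflammatory UMIs B2m lies near 1 at 0.919 and the heavy chains at 0.609.

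Each library pooled a female and a male mouse, whose cells were in part told apart by Xist and by 4 Y-linked genes. Among cells with Xist and no Y-linked UMI (200 in KO and 565 in WT), the 10 genes stood at 3189 and 6896 CPM, a ratio of 0.462 (0.429 to 0.497). Among cells with a Y-linked and no Xist UMI (12 and 195), they stood at 4638 and 5835 CPM, a ratio of 0.795 (0.613 to 1.02). Cells with UMIs of neither (99 and 587) stood at 3229 and 6271 CPM, and cells with both (9 and 80) at 1966 and 6403 CPM. The Y-linked value of KO rests on 67 member UMIs. Other than B2m, H2-D1 and H2-K1, each gene had 2 UMIs or fewer there. B2m stood at 2049 and 3115 CPM in the female and male cells of KO, against 4496 and 3884 CPM in WT. The difference between KO and WT was thus smallest in the cells with Y-linked and no Xist UMIs among these 4 classes, and these values are not replicates.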

How the data were processed

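The authors deposited 1 matrix of raw counts (UMIs per gene and barcode) per library, with 9999 barcodes each, not filtered to cells and not normalised. The submitters' processing notes name bcl2fastq 2.0 and STAR and the builds mm9 and mm10, with no roles. Use of strand and of multi-mapped reads was not given in the sources used here, so overlapping and near-identical genes are uncertain. Genes missing from 1 table were read as 0. The study called cells with DropletUtils, then dropped those under 100 genes. The calling was not rerun: 676 (KO) and 3618 (WT) barcodes had at least 100 genes, which are not the study's cells, and here 500 UMIs were needed as well. Doublets were left in. UMIs were summed per library and given as CPM, with exact Poisson, conditional binomial and Clopper-Pearson intervals (95%). Log2 ratios used a prior count of 0.5, and lists were counted over genes with at least 20 UMIs. Thinning drew 500 UMIs per cell without replacement. Cells of 1 library are not replicates, so MAST, used by the study, was left out. The members and lists were chosen with earlier results of these data known. Named genes were the 10 members, the pathway lists, the 5 closest genes per library, Park7 and summed markers, less some that are not reported here. Coordinates and upstream sequences are RefSeq's on GRCm38.p6. The calculations were tested on simulated data. Scripts ran in Python 3.11.15 with pandas 2.3.3, matplotlib 3.10.9, numpy 2.4.6 and scipy 1.17.1. Alternatives covered cell thresholds, scaling, thinning, free RNA, high-count cells, cells with other types' markers, mouse of origin, prior count and gene minimum.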

Additional observations from a re-analysis of the deposited data

How the results depend on the processing

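No paired analysis was possible because there is 1 library per genotype. Of 160 values of single members under an alternative, 144 stayed within the counting interval of the reported log2 ratio, 15 moved out of it and 1 whose interval lay below a ratio of 1 changed sign: Tap1 was at 2.32 among cells with 0 inflammatory UMIs, an alternative chosen after seeing the data, where it had 4 UMIs in KO and 0 in WT, so that this value is set by the prior count. In those cells the ratio of the summed immunoproteasome subunits was 1.20, that of all 10 genes 0.879, the median log2 ratio -0.13 (4 members past the minimum), 0 members were at least 2-fold lower, and the inducible share in WT was 38.2%. In cells with 0 antiviral UMIs, also chosen after seeing the data, the summed ratio was 0.580. In cells with Xist it was 0.462 and the inducible share in WT 61.1%. In cells with Y-linked UMIs the summed ratio was 0.795, the median -0.070 and the count 1. With cells of at least 1000 UMIs 2 members were at least 2-fold lower, with a summed ratio of 0.506 and a median of -0.80. The share of cells with a member was 87.8% in KO and 98.2% in WT at 1000 UMIs, 84.7% and 94.9% without thinning, and 66.6% in KO with another seed, which moved H2-K1 in KO from 8.44% to 4.69%. The r of B2m with the others was 0.464 and 0.789 without thinning, and 0.237 in WT at 1000 UMIs. Tap2, Psmb8 and Psmb9, whose intervals included a ratio of 1, had a log2 ratio above 0 under at least 1 alternative. Outside the subsets of cells by mouse or by antiviral or inflammatory UMIs, the summed ratio ranged from 0.480 to 0.524, the median from -0.84 to -0.61 and the inducible share in KO from 64.0% to 68.7%. The cause of each change was not tested. Depth limits Tap1, Psmb9 and Tap2, which had 12, 14 and 25 UMIs in KO.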
